A study of Mus musculus with 72 samples.

Results

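The genes described here are 75 X-linked genes of mouse at the distal end of the X chromosome (mm10), out of 399 genes for which allelic ratios were deposited in the iXist-ChrX-Cast line. They were chosen by start position, from Amot (start 145446423) to Hccs (end 169320343), with the bound set between Amot and the listed gene before it, Zcchc16 (start 144688906). 78 listed genes lie past this bound, of which Kdm5c, Huwe1 and Iqsec2 were set aside by name, as Mid1 would have been had it been listed.

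Chromatin-associated RNA sequencing (ChrRNA-seq), which reads mostly newly made RNA still bound to chromatin, was performed on XX mouse embryonic stem cells (mESCs) from a cross of Mus musculus domesticus (Dom) and Mus musculus castaneus (Cast), and on neural precursor cells (NPCs) differentiated from them. A doxycycline-inducible TetO promoter replaced that of Xist on the Cast X in iXist-ChrX-Cast (WT clone C7H8) and on the Dom X in iXist-ChrX-Dom (WT clone A11B2), so the X that becomes inactive (Xi) is known and the other stays active (Xa). SmcHD1 knockout (KO) clones D5 and G6 came from iXist-ChrX-Cast and A3 from iXist-ChrX-Dom by CRISPR-Cas9, and each genotype of a line is therefore 1 clone, or 2 for the Cast KO. All induced libraries of both genotypes received doxycycline continuously during differentiation in N2B27 medium. The mESCs were maintained on fibroblast feeders, which the study describes as depleted by pre-plating before experiments and before differentiation. Uninduced mESC libraries were of KO clones only: 2 of D5, 1 of G6 and 2 of A3. WT Cast cells were sampled in 2 replicates at day 2, 3 at days 3, 5 and 7, and 1 at days 15, 21 and 35, and each KO clone in 2 replicates at days 2 to 7 and 1 at each late day. In the Dom line, WT and A3 each had a pair of replicates from day 2 to day 7 and a single library at each of days 15, 21, 35 and 52.

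Xist RNA coats the chromosome it is made from and recruits repressors that shut genes off over days. SmcHD1 is a chromosomal protein of the SMC family that joins Xi after silencing has begun, and its loss leaves part of the silenced genes expressed from Xi. The share of a gene's allelic RNA that comes from Xi, Xi/(Xi+Xa), is near an even split before induction and falls towards 0 as the gene is silenced.

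The 72 libraries held 9344054 to 31216487 counted fragments in the Dom line and 13211298 to 31107643 in the Cast line, and made 65 replicates once repeat libraries (R1 and R2) were joined. The study describes the early replicates as repeats of the time course, so early p-values measure the spread between time courses of a clone. Where D5 and G6 were joined against WT, they also measure the spread between these clones. At the late days they measure that between days and, with D5 and G6 joined, clones. Smchd1 RNA was not absent from KO libraries: at days 2 to 7 it lay between 522 and 709 fragments per 1000000 counted fragments (RPM) in Cast WT, 416 and 613 in D5 and 460 and 616 in G6, so its level does not separate the genotypes. Late libraries carried RNA of the fibroblast markers Col1a1, Col1a2, Col3a1, Dcn and Thy1, and all 5 were detected. They summed to 224 to 7695 RPM in Cast WT, 2770 to 15048 in D5 and 1058 to 12867 in G6. At days 2 to 7 the sum was 124 RPM at most. In uninduced mESCs, which the study describes as plated without feeders before harvest, it was 4.99 and 15.7 RPM in D5 and 6.02 in G6. The source of the late RNA was not tested. The neural precursor markers summed to 129 to 914 RPM in late Cast libraries, with Sox1 at 0 in every group. In bulk RNA, fewer cells of a type and less RNA per cell cannot be told apart. On chromosome 6 past 140 Mb, the Cast share of late Dom WT fragments was 0.488 for the day 15 library but 0.375 to 0.413 for the later ones, whereas A3 stayed at 0.481 to 0.515.

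Allelic values come from the Cast line alone. In the Dom line 0.246% to 1.63% of the allelic fragments of the 75 genes in a library read as Dom, as both X chromosomes carried almost only Cast alleles there. Shroom2, an actin-binding protein of cell shape, was the only gene above 5%, at 9.11%. An Xi share cannot be given for that line, which therefore enters only through total RNA.

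Start regions are shown for 4 genes, to set large late differences beside differences near 0. They are the 2 genes with the largest and the 2 with the smallest late KO minus WT difference among those with an entry in the RefSeq promoter table (GRCm38.p6). The 200 bases before the start are written 5′ to 3′ on the gene's strand, with CG dinucleotides in capitals. All 4 genes lie on the minus strand of the X, at X:163958667-163958866 for Zrsr2, X:164076136-164076335 for Siah1b, X:162643659-162643858 for Reps2 and X:167209219-167209418 for Tmsb4x.
Zrsr2: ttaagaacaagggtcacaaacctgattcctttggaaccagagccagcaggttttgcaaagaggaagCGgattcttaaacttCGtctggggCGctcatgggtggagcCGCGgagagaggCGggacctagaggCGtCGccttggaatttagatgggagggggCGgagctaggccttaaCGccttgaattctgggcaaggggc
Siah1b: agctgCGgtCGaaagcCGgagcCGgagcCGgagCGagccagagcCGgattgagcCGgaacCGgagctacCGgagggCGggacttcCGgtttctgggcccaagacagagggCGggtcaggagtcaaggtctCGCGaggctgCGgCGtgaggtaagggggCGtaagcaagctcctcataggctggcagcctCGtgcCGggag
Reps2: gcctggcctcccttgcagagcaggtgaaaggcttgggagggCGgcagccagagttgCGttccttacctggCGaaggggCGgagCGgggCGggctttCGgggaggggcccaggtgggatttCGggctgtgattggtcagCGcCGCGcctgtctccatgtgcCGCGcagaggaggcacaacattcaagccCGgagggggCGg
Tmsb4x: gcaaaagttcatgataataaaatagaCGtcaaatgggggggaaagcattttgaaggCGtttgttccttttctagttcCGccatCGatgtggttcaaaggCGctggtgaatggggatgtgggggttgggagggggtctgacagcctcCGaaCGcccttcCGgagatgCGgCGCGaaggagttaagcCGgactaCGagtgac
The runs hold 10, 20, 15 and 13 CG dinucleotides, so the pair with large late differences does not stand apart from the pair without. 64 of the 75 genes matched an entry, 5 of them by an older symbol. Over the 250 bases before the start, CG (the same on both strands) was found in 100.0% of these 64 and in 89.0% of 1220 listed starts on the X, and the median count was 14.5 against 5. GC content was 60% in the median against 50.2%. The listed starts include genes that are not in the ratio table. Across the 64 genes the CG count was weakly related to the late difference (Spearman's correlation 0.14) and to the half-time below (0.15).

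Before induction, both alleles were expressed in the KO clones, with less from Cast in G6 than in D5. The median ratio of the 75 genes was 0.442 and 0.445 in the 2 D5 libraries and 0.346 in G6. For the other genes it was 0.447 in both D5 libraries and 0.438 in G6. G6 lay below both D5 libraries in 69 of the 75 genes (92%), against 57.4% of all 399 genes and 49.4% of the other genes. The lower values began before Amot: from Xist to 130 Mb the G6 median was 0.420, with 16 of 32 genes below both D5 libraries, and from 130 Mb to Amot it was 0.355, with 41 of 50. Fragments of the Cast allele summed over the 75 genes to 949 per 1000000 library fragments in G6 and to 1342 and 1444 in D5, while those of the Dom allele reached 1800 in G6 and 1642 and 1774 in D5. Xist was at 1009 RPM in this G6 library and at 154 and 322 RPM in the D5 libraries; its part in the lower ratio was not tested. With 1 uninduced G6 library and none of WT, the difference between clones has no replicate check.

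**Figure D1:**
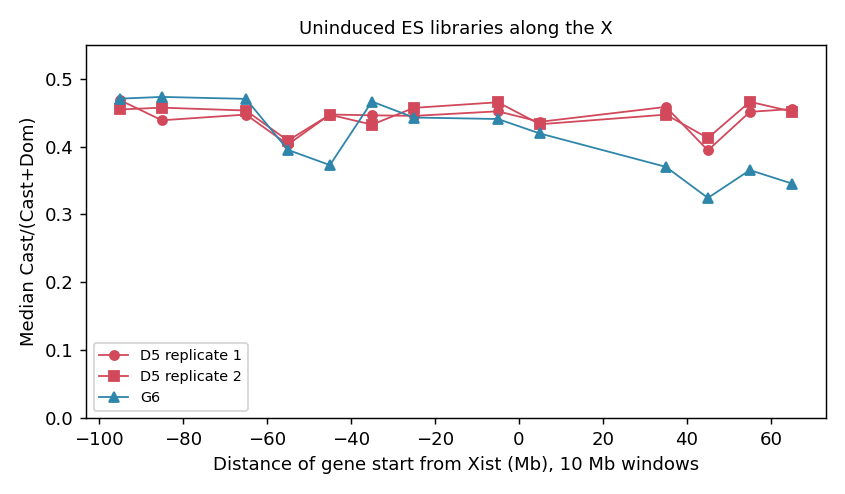
Median Cast/(Cast+Dom) of genes in 10 Mb windows of distance from Xist in the 3 uninduced mESC libraries of iXist-ChrX-Cast, with 1 point per window and library. The G6 library lies below both D5 libraries in the 4 windows farthest past Xist, at 0.324 to 0.370, and the lowest G6 window before Xist is at 0.373.

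Single genes departed from an even split at the outset. Ap1s2, a subunit of the AP-1 clathrin adaptor, read 0.832 and 0.820 in D5 and 0.755 in G6, so most of its RNA came from Cast. Arhgap6, a GTPase-activating protein, read 0.348 and 0.323 in D5 and 0.168 in G6. Both genes had the lowest value in G6.

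After induction, silencing of the 75 genes in WT was steep by day 2 and went on to day 35. The WT median ratio was 0.143 ± 0.0218 (SD, n = 2) at day 2, 0.0790 ± 0.0149 (n = 3) at day 3, 0.0275 ± 0.00811 (n = 3) at day 5 and 0.0191 ± 0.00457 (n = 3) at day 7. The late single libraries read 0.00441 at day 15, 0.00200 at day 21 and 0.00130 at day 35. The other genes gave 0.160, 0.0822, 0.0286 and 0.0168 at days 2, 3, 5 and 7. From day 3 to day 7 these values lay within the range of the replicates of the 75 genes. At day 2 the other genes were higher in both libraries, at 0.147 against 0.127 and 0.172 against 0.158.

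In D5 the median was 0.131 ± 0.0139 at day 2, 0.0766 ± 0.00951 at day 3, 0.0322 ± 0.00395 at day 5 and 0.0274 ± 0.00699 at day 7 (n = 2 each). In G6 it was 0.0948 ± 0.0304, 0.0513 ± 0.0181, 0.0216 ± 0.000281 and 0.0191 ± 0.00246 on the same days. D5 overlapped WT on all 4 days, whereas the G6 libraries lay below every WT library at days 2 and 3. The averages of days 3, 5 and 7 include libraries labelled R1 and R2 that differed. At day 3 the median of D5 replicate 1 was 0.0491 in R1 and 0.128 in R2. For G6 replicate 1 it was 0.030 and 0.0980.

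At the late days the KO medians were above WT and were lower at day 35 than at day 15. D5 read 0.0133, 0.00769 and 0.00296 at days 15, 21 and 35, and G6 read 0.0102, 0.00214 and 0.00189. Among the other genes the values were 0.0177, 0.0111 and 0.0187 in D5 and 0.0186, 0.00489 and 0.0102 in G6. At day 35 the KO median of both clones was thus lower at the distal end than over all other genes, and this was not tested. From Xist to Amot the median of the genes' means over the late days was 0.00790 in D5 and 0.00774 in G6. For the 75 genes that median was 0.00959 in D5 and 0.00581 in G6, so the neighbouring region was similarly low. The gene at the median depth had few late fragments, so that the share which 0 fragments would allow (3 counts) was 0.0102 to 0.0121 in WT, 0.00877 to 0.0133 in D5 and 0.00508 to 0.0100 in G6, and most late medians lie at or below it. Pooled over the fragments of the 75 genes, the Cast share was 0.0198, 0.0172 and 0.0198 in D5 at days 15, 21 and 35, so it did not fall there. In G6 the pooled share was 0.0138, 0.00648 and 0.00951.

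**Figure D2:**
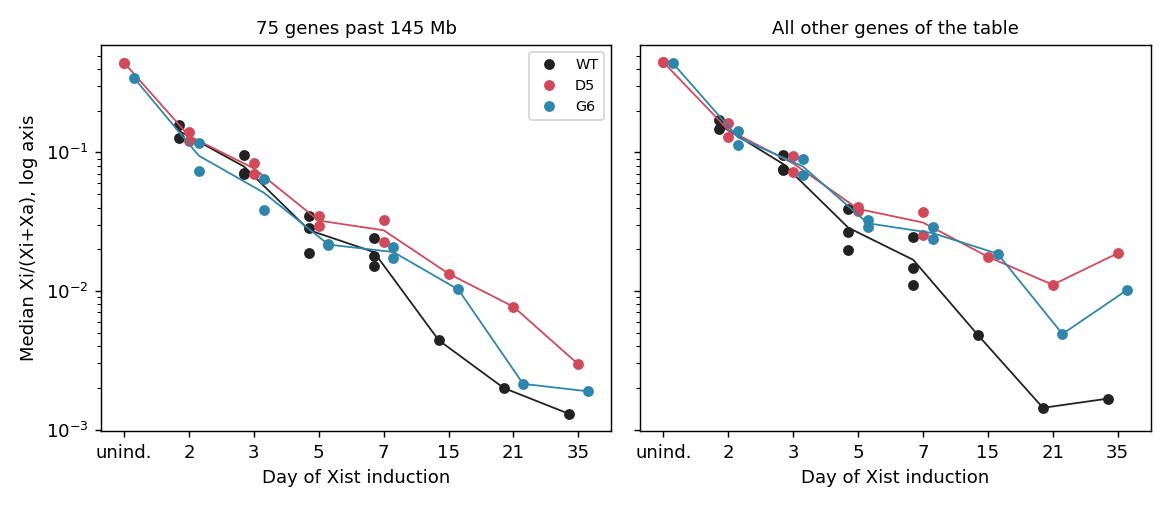
Median Xi/(Xi+Xa) on a log axis by day of Xist induction in iXist-ChrX-Cast, for the 75 distal genes (left) and the other genes (right), with 1 point per replicate and lines through the means of WT, D5 and G6. At day 35 the KO medians of the 75 genes are 0.00296 and 0.00189, against 0.0187 and 0.0102 for the other genes.

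The fall of the ratio came from the Cast allele. Summed over the 75 genes, the Cast allele gave 34 to 392 fragments per 1000000 in WT at days 2 to 7 and 7.15 to 13.4 late. It stayed higher late in KO, at 41.3 to 44.3 in D5 and 16.1 to 36.9 in G6, with no overlap with WT. The Dom allele gave 1736 to 2446 fragments per 1000000 in WT at days 2 to 7 and 2234 to 2607 late, a range that overlapped that of D5 (2039 to 2391) and G6 (2326 to 2632) at the late days.

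**Figure D3:**
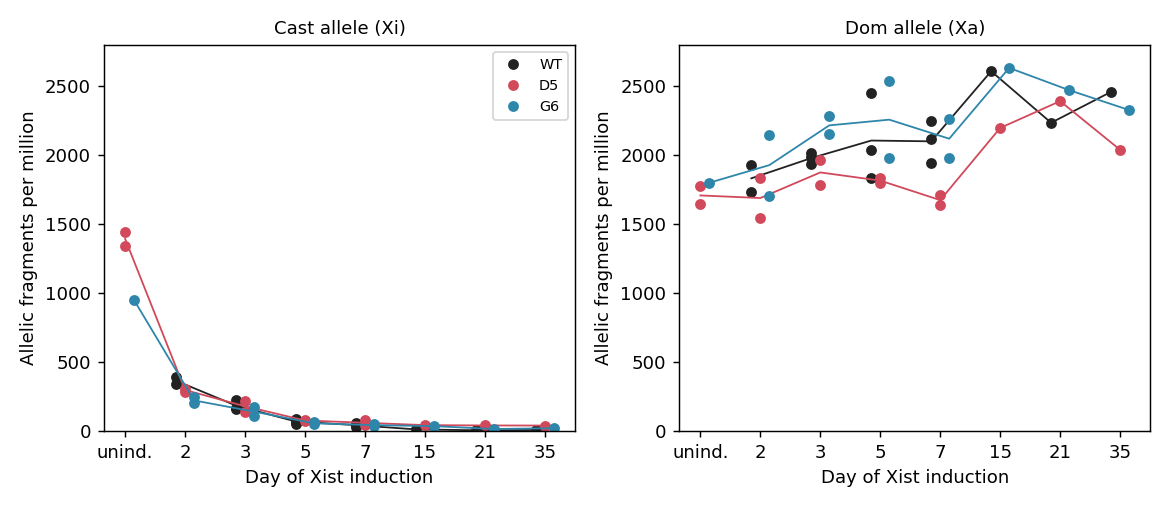
Allelic fragments of the 75 genes, summed and given per 1000000 library fragments, by day of induction in iXist-ChrX-Cast, for the Cast allele (left) and the Dom allele (right), with 1 point per replicate and lines through the means. The Cast allele falls from 949 to 1444 before induction to at most 44.3 at the late days, while the Dom allele stays between 1542 and 2632.

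A silencing half-time was fitted to the WT ratios of days 2 to 7 and the uninduced KO ratios. The median half-time of the 75 genes was 1.39 days (quartiles 1.03 and 1.82), against 1.30 days for the other genes. With the day 0 point from D5 alone the median of the 75 genes was 1.30 days. The genes nearest the end of the chromosome took longest: the 12 genes from 165 Mb on had a median of 2.09 days and the 26 genes from 150 to 155 Mb one of 1.12 days. Across the 75 genes, half-time and start position had a Spearman's correlation of 0.37. Neighbouring genes are not independent points.

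The shortest half-times belonged to Mageh1 (0.458 days) and Maged2 (0.672 days) of the MAGE family, Gpr173, an orphan G protein-coupled receptor (0.523 days), Tmsb4x, which encodes the actin-sequestering thymosin beta-4 (0.541 days), and Nhs, a regulator of actin at cell junctions (0.575 days). At day 2 in WT, Mageh1 was measured on 7 and 16 allelic fragments and Tmsb4x on 8 and 31. Gpr173 had 39 and 48 and Maged2 44 and 72, so counting error is wide for these genes. No library was taken between the uninduced point and day 2. Nhs, on 1887 and 2300 fragments, was near silent by day 2. It read 0.0424 and 0.0474 in the 2 WT libraries of day 2 and at most 0.0192 in the 3 of day 3.

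The longest half-times that held when single replicates were left out were those of Tceanc, a relative of the elongation factor TFIIS (2.96 days, 2.83 to 3.15 over the fits with 1 replicate left out), Rab9, a GTPase of transport from late endosomes to the Golgi (2.76 days, 2.71 to 2.84), Zrsr2, a factor of the minor spliceosome (2.72 days, 2.68 to 2.83), and Piga, which acts in the first step of GPI anchor synthesis (2.60 days, 2.50 to 2.71). Rab9 still read 0.280 and 0.355 at day 2 and 0.106, 0.122 and 0.142 at day 5 in WT. Frmpd4, a postsynaptic scaffold protein, had the largest fitted value at 8.91 days, which ranged from 2.4 to 12.2 days when single replicates were left out. Its WT ratio did not fall steadily: it was 0.0187, 0.0962 and 0.0663 at day 3, then 0.143, 0.229 and 0.104 at day 5 and 0.118, 0.273 and 0.239 at day 7.

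Whether loss of SmcHD1 left genes of this end of the X active was tested with limma on the ratio at days 15, 21 and 35, with D5 and G6 together against WT. A single gene of the 75 passed at an adjusted p below 0.05, Zrsr2, against 28 of 388 tested genes of the X (7.22%). At an unadjusted p below 0.05 there were 16 of the 75, all higher in KO, and 95 of the 388 (24.5%). The difference was positive in 57 genes, negative in 14 and 0 in the other 4, against 316 of the 388 positive. Its median was 0.00370 against 0.00645 over all genes tested. Every KO library lay above every WT library in 10 of the 75 genes (13.3%), against 21.6% of all genes tested. From Xist to Amot it was 15.2%. edgeR on the allelic counts called 14 of the 75 and 104 of 399 over the X, and limma on the log2 ratio 13 and 114 of 399, the latter chosen after seeing the data.

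Zrsr2 read 0.0250, 0.00775 and 0.0103 in WT at days 15, 21 and 35. In D5 it read 0.155, 0.178 and 0.265, and in G6 0.109, 0.122 and 0.162. Every KO value lay above the highest WT value, and each clone was highest at day 35. The difference was 0.151 (SE 0.0307, limma adjusted p = 0.0403). The 95% Wilson intervals, which cover counting error only, were 0.0150 to 0.0416 for WT at day 15 (14 of 559 fragments) and 0.0884 to 0.133 for G6 at day 15 (82 of 755). The call was lost without any 1 of the 3 WT libraries or any of the day 15 and day 21 KO libraries, where the difference was 0.124 to 0.173, and with either clone alone (0.185 for D5 and 0.117 for G6).

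Members that act on chromatin and transcription included 2 with similar patterns. Phf8, a histone demethylase, read 0.0125, 0.00232 and 0.0140 in WT, 0.118, 0.0816 and 0.190 in D5 and 0.0694, 0.0581 and 0.112 in G6 (difference 0.0954, SE 0.0234, limma adjusted p = 0.0646). Smc1a, a core subunit of cohesin, read 0.00883, 0.00653 and 0.0450 in WT, 0.130, 0.0878 and 0.179 in D5 and 0.0791, 0.0679 and 0.0748 in G6 (0.0830, SE 0.0247, adjusted p = 0.0925). In both genes the groups did not overlap and the adjusted test was missed. Tceanc had values of 0, 0.0294 and 0.0303 in WT and 0.0606 to 0.167 in KO, from 30 to 91 fragments per library. None of the 10 listed genes of this role passed, 4 did at an unadjusted p below 0.05, and their median difference was 0.00724. Apex2, a DNA repair endonuclease and the deepest of them, stayed at or below 0.00213 in all late libraries.

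Among genes of RNA and protein synthesis and turnover, to which Zrsr2 belongs, 1 of 7 passed, 4 did so unadjusted, and the median difference was 0.0244. Tsr2, which acts in ribosome biogenesis, had no Cast fragment in WT, with 0 of 84, 89 and 122 fragments, which allows shares of up to 0.0357, 0.0337 and 0.0246. It read 0.0584, 0.124 and 0.0860 in D5 and 0.0165, 0.0593 and 0.114 in G6, a difference of 0.0763 (SE 0.0205, limma adjusted p = 0.0756). The lowest KO value, 2 of 121 fragments, lay below what 0 fragments allow in WT. Siah1b, a RING-type ubiquitin ligase, was measured on 23 to 76 fragments per library and read 0.0435, 0 and 0 in WT, 0.122, 0.143 and 0.180 in D5 and 0.05, 0.0727 and 0.132 in G6. Tsr2 overlaps Fgd1 on the opposite strand, and counting used strand. For Siah1b the difference of 0.102 (SE 0.0296, adjusted p = 0.0870) was the second largest of the 75.

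None of the 9 genes of membrane traffic and cilia passed, although their half-times were long (median 2.21 days) and their median difference was 0.0205. Syap1, a synapse-associated protein, read 0.0118, 0.00402 and 0 in WT, 0.0924, 0.0421 and 0.146 in D5 and 0.0669, 0.0274 and 0.0831 in G6. Ofd1, a centriole protein needed for cilia and the most deeply measured gene of the group, read 0.0152, 0.0150 and 0.0106 in WT and 0.0392, 0.0290 and 0.127 in D5, but 0.0388, 0.00583 and 0.0255 in G6, which overlapped WT.

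The 15 genes of metabolism gave no call, with 3 unadjusted and a median difference of 0.00200. Piga was the one in which the groups did not overlap, at 0.0329, 0 and 0.0128 in WT, 0.0978, 0.0417 and 0.0816 in D5 and 0.0783, 0.0595 and 0.0355 in G6. Phka2, a regulatory subunit of phosphorylase kinase, stayed at or below 0.0155 in every late library. The 14 genes of signalling and the cytoskeleton (median 0.00177), the 8 neural and other surface genes (0.00176) and the 3 MAGE genes (0) gave no call, and 1, 1 and 0 of them passed unadjusted. Gpm6b, a neural membrane proteolipid, had separate groups, at 0.00122, 0.00130 and 0.00137 in WT and 0.00177 to 0.00509 in KO, all near 0. Of 12 genes whose human homologues are known to escape X inactivation, 1 passed, 6 did so unadjusted, 11 were higher in KO and the median difference was 0.0225. These lists were chosen with earlier results of these data in view.

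**Figure D4:**
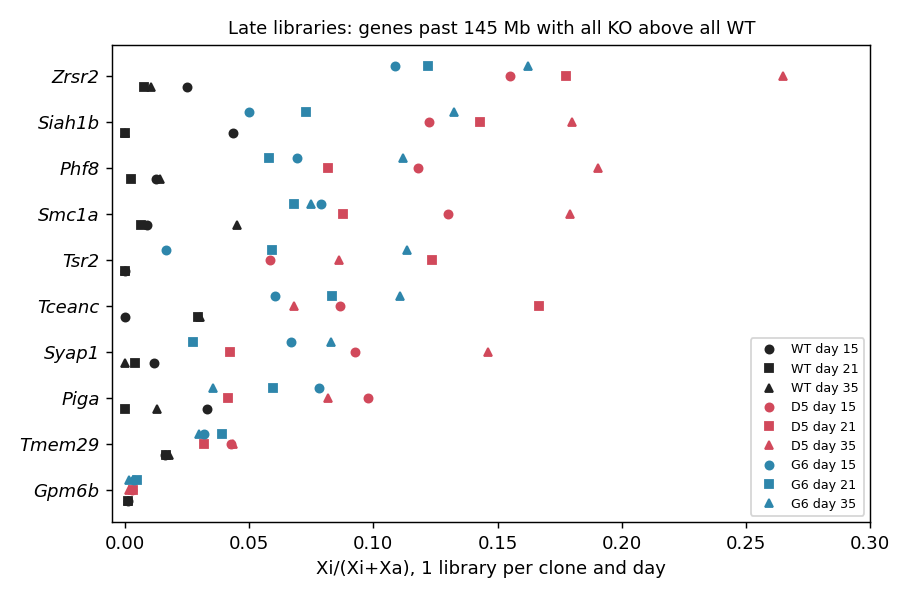
Xi/(Xi+Xa) of the 10 genes in which every late KO library lay above every late WT library in iXist-ChrX-Cast, with 1 point per clone and day. Zrsr2 reaches 0.265 in D5 at day 35 while WT stays at or below 0.0250, and Gpm6b stays at or below 0.00509 in all libraries.

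At the other end were genes silenced alike or lower in KO. 3010001F23Rik, an uncharacterised transcript, had the highest late WT ratio of the 75, at 0.185, 0.164 and 0.0400, and a difference of -0.0185 (SE 0.0426). It was measured on 25 to 133 fragments per library, and its WT day 35 value rests on 1 of 25 fragments. Kctd12b, a potassium channel tetramerisation domain protein (-0.00968), the endocytic protein Reps2 (-0.00624), Tmsb4x (-0.00457) and Scml2, a Polycomb group protein (-0.00416), followed. Kctd12b read 0.0357, 0 and 0 in WT and Tmsb4x 0, 0.0137 and 0, and these lone values rest on few fragments (28 to 317 and 18 to 73 per late library). Next to 3010001F23Rik, the highest late WT means were those of Frmpd4 (0.0408 ± 0.0259, SD, n = 3) and Map7d2, a microtubule-associated protein (0.0340 ± 0.0374), the latter on 11 to 46 fragments per library. In 9 genes, including Mageh1, Gpr173, Hsd17b10 and Tsr2, no Cast fragment was counted in any of the 3 late WT libraries.

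Late means above 0.1 were reached by 1 gene in WT (3010001F23Rik), by 8 in D5 and by 1 in G6 (Zrsr2). The 8 of D5 were Phf8, Smc1a, 3010001F23Rik, Mbtps2, Zrsr2, Siah1b, Tceanc and Hccs. At days 15, 21 and 35 the single D5 libraries had 6, 8 and 10 of the 75 genes above 0.1. Of up to 324 other genes they had 57, 44 and 68. The G6 libraries had 2, 2 and 6 of the 75 against 44, 31 and 48 of the others. WT had 1, 1 and 0 against 12, 17 and 21. The late mean of D5 was above that of G6 in 49 of the 75 genes, and the test of that difference gave no call among the 75 (limma, 0 of 388 over the X, and 9 and 46 at an unadjusted p below 0.05). Mbtps2, the site-2 protease that activates membrane-bound transcription factors, read 0.0987, 0.126 and 0.131 in D5 but 0.0523, 0.0109 and 0.0341 in G6 (difference 0.0861, SE 0.0153, adjusted p = 0.185). Hccs, which attaches haem to cytochrome c, read 0.112, 0.101 and 0.122 in D5 and 0.0592, 0.0352 and 0.0539 in G6 (0.0622, SE 0.0104, adjusted p = 0.181). For Zrsr2 the D5 minus G6 difference was 0.0682 (SE 0.0245), for Siah1b 0.0634 (SE 0.0250) and for Trappc2, a subunit of the TRAPP tethering complex, 0.0613 (SE 0.0249). Mbtps2 shares its strand with the overlapping Yy2, and fragments of the pair cannot be told apart by strand.

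Genes that took longer to silence in WT had the larger late differences. Over the 75 genes the half-time and the late KO minus WT difference had a Spearman's correlation of 0.58 and a Pearson's r of 0.42. Both measures use ratios of the same WT line, and genes are not independent replicates. Of the genes with a difference above 0.05, Tsr2 had the shortest half-time (1.58 days), followed by Hccs (1.97 days). The late differences of D5 and G6 from WT, which share the WT libraries, were 0.185 and 0.117 for Zrsr2.

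**Figure D5:**
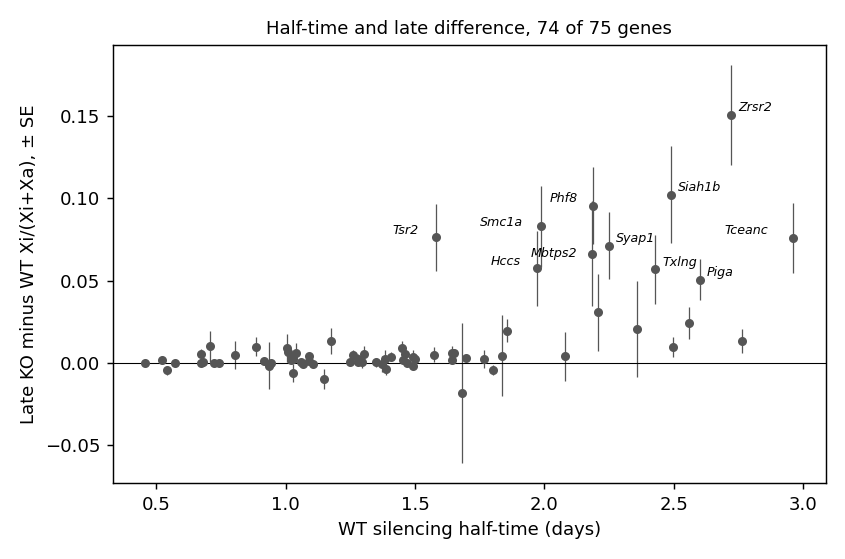
WT silencing half-time in days against the late KO minus WT difference in Xi/(Xi+Xa), with its standard error, for 74 of the 75 genes in iXist-ChrX-Cast. Frmpd4 (8.91 days, difference 0.0316) is outside the axis, and genes with a difference above 0.05 are named.

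At days 5 and 7 limma called none of the 75 genes and 2 of 399 over the X (6 and 66 at an unadjusted p below 0.05). edgeR on the allelic counts called 3 of the 75, and its count over the X is not given here. Msl3, of a complex that acetylates histone H4, had the largest positive difference of those 6, at 0.0292. It read 0.0158, 0.0214 and 0.0257 in WT at day 5, against 0.0726 and 0.0418 in D5 and 0.0509 and 0.0282 in G6. All 4 KO replicates of day 5 lay above WT. The median difference over the 75 genes was 0.000501, and 33 of them were lower in KO.

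At days 2 and 3 the ratios were lower in KO in 68 of the 75 genes and in 303 of all 399. The median difference was -0.0223 against -0.0105 over all 399. limma called none of the 75 and none over the X. At an unadjusted p below 0.05 there were 15 of the 75 and 32 over the X. With G6 alone against WT, 32 of the 75 and 62 of the 399 passed unadjusted, and with D5 alone 3 and 20 did. The lower share of Cast in uninduced G6 stands beside this difference, and its part in it was not tested. Siah1b had the largest difference, -0.111 (SE 0.0230), with 0.426 and 0.404 in WT at day 2, 0.255 and 0.346 in D5 and 0.252 and 0.344 in G6. Trappc2 followed at -0.0881 (SE 0.0217).

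The change of the KO minus WT difference from days 2 and 3 to the late days was tested itself. It passed in 8 of the 75 genes, all upwards, against 48 of 388 (12.4%) over the X. The 8 were Phf8, Smc1a and Tceanc of chromatin and transcription, Zrsr2 and Siah1b of RNA and protein synthesis and turnover, and Mbtps2, Txlng and Syap1 of membrane traffic. Siah1b changed by 0.214 (SE 0.0379, limma adjusted p = 0.00103) and Zrsr2 by 0.205 (SE 0.0346, adjusted p = 0.000763). In these genes the ratio was lower in KO than in WT early and higher late. With D5 alone 6 genes passed, of which Phf8, Smc1a, Mbtps2, Zrsr2 and Siah1b were among the 8, and with G6 alone 3 passed, of which Zrsr2 and Siah1b were.

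Total RNA, both alleles together, changed much more between mESCs and differentiating cells than between genotypes. All 75 genes passed the filter on low counts in each fit. In A3 of the Dom line, the 75 genes summed to 8008 ± 62.1 RPM uninduced (SD, n = 2) and 5041 ± 352 at days 2 to 7 (n = 8). In D5 they summed to 8043 ± 295 uninduced (n = 2) and 4974 ± 347 at days 2 to 7 (n = 8), and in G6 to 6902 (1 library) and 5496 ± 414. WT reached 4839 ± 202 in the Dom line (n = 8) and 5413 ± 308 in the Cast line (n = 11) at days 2 to 7.

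edgeR, with days 5 and 7 against uninduced, called 32 of the 75 genes lower and 4 higher in A3, against 19.2% lower and 18.9% higher over 16277 genes. In D5 and G6 it called 45 lower and 7 higher, against 27% lower and 27.6% higher over 15941 genes. The median log2 fold change of the 75 genes was -0.55 in A3 and -0.72 in D5 and G6, against 0.06 and 0.02 over all genes. 31 genes were lower in both lines, which is 31 of the 32 of A3 and 31 of the 45 of D5 and G6. Without 1 of the 2 uninduced A3 libraries, the calls in A3 fell to 20 or 21. Induction of Xist and differentiation came together in these cells and cannot be told apart.

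Ap1s2 fell most in both lines. It was at 433 and 375 RPM in uninduced A3 and 16.7 to 33.9 at days 5 and 7 (log2 fold change -3.75, SE 0.28, edgeR adjusted p = 0.00072). In the Cast line it was at 255 and 200 RPM in uninduced D5 and 143 in G6, and at 11.3 to 24.6 at days 5 and 7 (-3.61, SE 0.24). Its uninduced RNA came mostly from the Cast allele (above), which is Xi in that line. Map7d2 (-2.54 in A3 and -2.57 in D5 and G6), Sat1, which acetylates polyamines (-2.30 and -1.88), the kinase gene Wnk3 (-2.01 and -1.75), Klf8, a Krüppel-like transcription factor (-1.47 and -2.38), Txlng, a taxilin (-1.98 and -2.33), Frmpd4 (-2.05 and -2.07) and Siah1b (-1.88 and -2.24) fell in both lines.

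Amot, an angiomotin of cell junctions and Hippo signalling, Arhgap6 and Maged2 rose in both lines. Amot rose from 27 and 31.2 RPM in uninduced A3 to 72.3 to 162 at days 5 and 7 (log2 fold change 2.21, SE 0.31, edgeR adjusted p = 0.00274) and by 1.58 (SE 0.21) in D5 and G6. Arhgap6 rose by 2.34 (SE 0.49) and 1.78 (SE 0.44), and Maged2 by 1.22 (SE 0.29) and 1.13 (SE 0.23). 2 uncharacterised transcripts, 9530051G07Rik (1.05) and 3010001F23Rik (1.01), rose in D5 and G6, with 0.95 and 0.48 in A3, where they did not pass. Arhgap6 varied widely between clones, with 188 to 572 RPM in D5 and 621 to 1969 in G6 at days 5 and 7. In A3, Scml2 had a log2 fold change of 0.89 (SE 0.31, adjusted p = 0.0600), and in D5 and G6 it fell by 1.15 (SE 0.42, adjusted p = 0.0329).

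By role, edgeR called lower in A3 and in D5 with G6 5 and 8 of 10 genes of chromatin and transcription, 6 and 10 of 15 of metabolism, 5 and 5 of 7 of RNA and protein synthesis and turnover, and 8 and 7 of 9 of membrane traffic and cilia. In signalling and the cytoskeleton it called 5 and 7 of 14 lower and 2 and 3 higher. Of the 8 neural and other surface genes 1 and 2 were lower and none was higher.

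Between genotypes, few of the 75 genes passed a test of total RNA. At days 2 to 7 of the Cast line edgeR called 1 gene, lower in KO, against 0.174% of 15499 genes called lower. It was Acot9, a mitochondrial acyl-CoA thioesterase, at 48.9 to 85.6 RPM in WT, 40.9 to 65.1 in D5 and 40.1 to 64.4 in G6 (log2 fold change -0.28, SE 0.06, edgeR adjusted p = 0.0378), with ranges that overlapped. The call was lost with no filter on low counts and in 15 of the 27 fits that left out 1 replicate. In the Dom line its log2 fold change was -0.06 (SE 0.12).

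In the other 3 comparisons of total RNA edgeR, fitted without a replicate block, called none of the 75. In the Dom line at days 2 to 7, 10 of the 75 and 2134 of 15443 genes had an unadjusted p below 0.05. DESeq2 called 3 there (Amot, Scml2 and Msl3, all higher in KO). At the late days of the Dom line 5 of the 75 and 1622 of 15229 genes did, and DESeq2 called Ptchd1 lower and Zrsr2 higher. In the late Cast line 13 of the 75 and 1898 of 14963 did, and DESeq2 called Maged2 and Reps2 higher and Shroom2 lower. The DESeq2 calls stand here without their count over all genes.

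Zrsr2 had more total RNA in late KO libraries of the Dom line. It was at 42.1, 47.0, 49.7 and 48.8 RPM in WT at days 15, 21, 35 and 52 and at 58.7, 63.8, 66.5 and 62.4 RPM in A3, with no overlap (log2 fold change 0.56, SE 0.09, edgeR adjusted p = 0.462, DESeq2 adjusted p = 0.000483). In the Cast line it was at 46.7, 58.8 and 51.4 RPM in WT, at 63.5, 64.6 and 63.8 in D5 and at 65.7, 54.5 and 62.1 in G6, where the groups overlapped through G6 at day 21 (0.33, SE 0.14, edgeR adjusted p = 0.395). The chromosome 6 share of the late Dom WT libraries given above stands beside the first of these, and its part was not tested.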

How the data were processed

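The authors removed rRNA reads with Bowtie2 2.3.2, used STAR 2.4.2a for alignment to mm10 with strain variants masked, split fragments by allele with SNPsplit and made the counts per gene with featureCounts 1.5.2, strand-specific and over whole transcripts. The deposited count files hold unnormalised whole-number counts (total, Cast and Dom) for 22556 genes. The deposited ratio table holds the fraction Xi/(Xi+Xa), which the authors computed after leaving out X-linked genes with few allelic fragments or a skewed uninduced ratio. 18337 ratios were checked against the counts and differed by no more than rounding. 26 value columns of the Dom ratio table were not used.

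Samples were grouped by line, clone and day from the labels. Repeat libraries R1 and R2 were joined by averaging ratios and summing counts. Ratios were tested with limma 3.58.1 (trend) and counts with edgeR 4.0.16 (quasi-likelihood, TMM, low counts filtered), in R 4.3.3, with Benjamini-Hochberg adjustment over all genes of a table, two-sided and at a threshold of 0.05. The late test joined days 15, 21 and 35. Half-times came from an exponential fit in Python 3.11.15 with scipy 1.17.1. DESeq2 1.42.0, allelic count tests, other filters, single clones, replicate blocks and leaving out replicates were alternatives. The late limma ratio fit, the edgeR fits of early total RNA between genotypes and the half-time fit were tried on simulated data first. The other tests were not. RPM are fragments per 1000000 counted fragments of a library.

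The genes, role lists and tests were chosen with earlier results of these data known. Genes named are those that passed the late or a genotype test, the 5 at each end of late difference, half-time and induced change per line, the 5 largest D5 to G6 differences, the 3 highest late WT ratios and the most deeply measured gene per role. Others were named after their values were seen. Floors and Wilson intervals cover counting error only.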

Additional observations from a re-analysis of the deposited data

Results flagged for a closer look

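In 8 of the 75 genes the KO minus WT difference in Xi/(Xi+Xa) changed from days 2 and 3 to the late days by a test of that change (limma, adjusted over 388 genes of the X). Over the X 48 of the 388 passed (12.4%), so such changes were not particular to the distal end. The change was 0.125 for Phf8 (SE 0.0324, adjusted p = 0.0146), 0.125 for Smc1a (SE 0.0298, adjusted p = 0.00751) and 0.157 for Tceanc (SE 0.0411, adjusted p = 0.0149). It was 0.205 for Zrsr2 and 0.214 for Siah1b, the largest of the 8. For the genes of membrane traffic it was 0.107 for Mbtps2 (adjusted p = 0.0453), 0.106 for Txlng (adjusted p = 0.0254) and 0.102 for Syap1 (adjusted p = 0.0260). Each of the 8 was lower in KO at days 2 and 3 and higher late, and uninduced G6 was lower as well.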

How the results depend on the processing

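Counts are of the 75 genes called. For the late ratio difference (1 gene), 14 were called by edgeR on allelic counts, 13 on the log2 ratio, 4 with at least 20 fragments in every library and 3 with R1 and R2 as separate replicates, but 0 with D5 alone, 0 with G6 alone and 0 without day 15, day 21 or day 35, and 0 to 3 without single replicates. The change between periods (8 genes) gave 2 with days 5 and 7 in place of days 2 and 3, 3 with R1 and R2 separate, 3 with G6 alone and 4 to 11 without single replicates. Days 5 and 7 (0) gave 3 on allelic counts, 3 with D5 alone and 0 to 1 without single replicates, and days 2 and 3 (0) gave 2 with R1 alone. For total RNA, DESeq2 called 2 in the Dom line late, 3 in the Dom line at days 2 to 7, 3 in the Cast line late and 2 in the Cast line at days 2 to 7, where no filter gave 0 and leaving out replicates 0 to 1. Dom days 2 to 7 gave 0 to 1 without single replicates. Induction in A3 (36) gave 20 without uninduced replicate 1, 21 without replicate 2 and 20 to 41 over all replicates left out. The median half-time (1.39 days) was 1.25 with a free plateau, 1.30 with day 0 from D5 alone and 1.35 to 1.43 without single replicates. No direction reversed, and the cause of each change was not tested. Leaving out late days, the log2 ratio, R1 alone, the D5 day 0 point, single clones for the change between periods and the crossed block were chosen after seeing the data.

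Deviations of same-numbered replicates from their group means correlated at 0.379 to 0.790 between D5 and G6 on days 2 to 7, but at -0.592 to 0.768 between WT and KO in the Cast line, where replicate 1 was positive on each day and replicate 2 negative at days 3, 5 and 7, so the numbers were not taken to pair WT with KO. The main early fits had no replicate block and so took the D5 and G6 replicates as independent. With a replicate block, 1 gene was called at days 5 and 7 and 4 for Cast total RNA at days 2 to 7. In the Dom line all correlations were negative, and a crossed replicate block called 4 of the 75 and 540 of all genes. The late fits matched libraries by day, which was a factor in them, and late WT libraries carry no replicate number to block on. Late shares below what 0 fragments allow were not detectable at this depth.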
